A study of Rattus norvegicus with 325 samples.

Results

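The gastrocnemius, the large calf muscle, was compared between 27 and 24 months of age in male rats of the outbred Sprague Dawley strain. The comparison takes the 11 libraries whose labels give this muscle and 27 months and the 9 that give 24 months, 20 of the 73 gastrocnemius libraries beside 252 of other muscles in the series, and no measured value entered that choice. The labels name no treatment for either group, so both hold the same strain and sex and differ by age. The series is bulk RNA sequencing of the gastrocnemius, tibialis anterior, soleus and diaphragm from 6 months onward. Per the study's methods the tissues of an age were taken on a single day, between morning and early afternoon. The ages were spread over months, so that age and collection day cannot be told apart here. The labels do not tie a library to an animal, and the p-values therefore measure the spread between these samples.

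As background, skeletal muscle fibres in old rodents lose and regain their nerve supply. A fibre without its nerve re-expresses acetylcholine receptor subunits of the fetal type along its length, together with the adhesion molecule Ncam1, the factor Runx1 and the calcium pump inhibitor sarcolipin (Sln). Ageing muscle also shifts its fuel use and its content of fat, connective tissue and immune cells, and muscle holds a circadian clock that sets the level of many transcripts by the hour of the day. In bulk tissue fewer cells of a type and less RNA per cell cannot be told apart, which holds for each cell type marker given here.

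The 24-month libraries held 19.4 to 56.6 M counts (median 27.0) and those of 27 months 20.5 to 62.8 M (median 30.2). Ribosomal RNA genes took 0.435 to 2.89% of the counts at 24 months (median 0.989) and 0.605 to 6.11% at 27 months (median 2.46), a difference in means of 1.04 percentage points (exact permutation test, two-sided, p = 0.0781, adjusted over 3 library measures 0.234). Its part in the results was not tested apart from a fit that carries it as a covariate. The 14 fast fibre markers summed to a median of 122370 CPM (counts scaled to the library total) at 24 months (range 78907 to 183690) and 121480 at 27 months (80529 to 162480). The slow fibre sum ran from 7798 to 16934 at 24 months and from 3270 to 16153 at 27 months. The 27-month library of replicate 1 stood apart in liver transcripts, with albumin (Alb) at 6.75 log2 CPM against 0.07 or less in the other 19 libraries.

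The step between these ages was small. Of 11865 genes tested by limma-voom 74 (0.624%) were called, meaning that they passed an adjusted p of 0.05 at more than 1.5-fold, and 65 of them (0.548%) were higher and 9 (0.0759%) lower at 27 months. Without the fold threshold 469 genes passed, 233 higher and 236 lower. Between 21 and 24 months, a step that shares the 24-month libraries, 797 genes (6.72%) were called in the same fit, 501 of them higher (4.22%). Of the 74 called genes 19 had a mean of 0 log2 CPM or less over the 20 libraries. The median absolute change over all genes was 0.11 on the log2 scale for the last step and 0.18 for the step before it. None of the 74 called genes kept the libraries of the 2 ages fully apart. The 5 genes of all those tested that did (0.0421%) moved by less than 1.5-fold, namely Cd9 and Laptm4a, which were higher, and Fez2, Pomp and Tmem167b, which were lower. Of these, Tmem167b had an adjusted p of 0.0747 and the other 4 had 0.00824 or less. They were named after their values were seen.

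**Figure D1:**
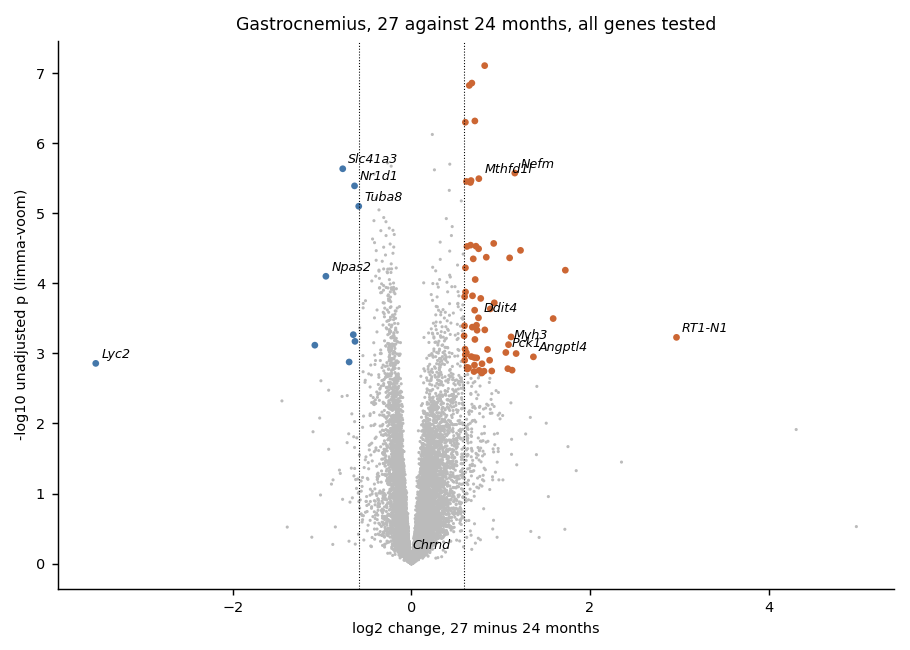
Fitted log2 change from 24 to 27 months (x axis) against -log10 of the unadjusted p (y axis) for the 11865 genes tested in the gastrocnemius, with called genes in orange (65 higher) and blue (9 lower) and the 1.5-fold limits dotted. The cloud is narrow and centred near 0, and the called genes lie mostly to the right.

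The count depended on single libraries. It ranged from 23 to 162 when each of the 20 libraries was left out in turn. Past a factor of 1.5 it fell to 45, 34, 40 and 41 without the 24-month replicates 1, 2, 3 and 8 and to 23 and 44 without the 27-month replicates 0 and 3. It rose to 162 without the 24-month replicate 7 and to 120 without the 27-month replicate 1, the library with liver transcripts. Of the 20 libraries the 27-month replicate 0 held the most counts (62.8 M) and the largest ribosomal RNA share (6.11%). With the ribosomal RNA share as a covariate 38 genes were called, and with only the 20 libraries in the fit 14. Among the 29 named genes that were called, Nefm, Rrm2, Npas2, Slc41a3, Mthfd1l and Ccnb1 kept their call in all 20 of the fits without a library, and each of the other 23 lost it in 2 to 14 of them. With only the 20 libraries in the fit Npas2, Ddit4, Cd163 and Hbb were called and the other 25 were not. Both edgeR and DESeq2 lost the calls of Tp73, Myh3, Anxa8, Calml3, Mt2A, Cst7, Sln, Postn, Azin2, Cd163 and Hbb. The fit with the ribosomal RNA share lost these 11 and those of Angptl4, Pck1, Cd24, Ddit4, Cebpb, Serpina3n and Lck.

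The largest rises at a mean level above 0 log2 CPM included those of Angptl4, Tp73, Nefm, Myh3, Anxa8 and Pck1. Angptl4, a secreted inhibitor of lipoprotein lipase that fasting, fatty acids and glucocorticoids induce, ran from -0.11 through a median of 2.23 to 3.11 log2 CPM at 24 months. At 27 months it ran from 1.82 through 3.30 to 5.01, with 7 of 11 libraries above the highest of 24 months. The groups overlapped, and the fitted log2 rise was 1.37 (SE 0.40, adjusted p = 0.0376), or 2.58-fold. Its call was lost without the 24-month replicates 1, 2, 3, 4 or 8 or the 27-month replicates 0, 3, 6 or 8, where the adjusted p reached 0.106.

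Pck1, the cytosolic enzyme that opens gluconeogenesis and feeds glycerol synthesis in fat cells, had a lowest, median and highest level of -0.38, 0.31 and 1.49 log2 CPM at 24 months and 0.24, 1.31 and 3.04 at 27 months. The groups overlapped over the lower part of the 27-month range, and 9 of 11 libraries lay above the 24-month median. It rose by 1.06 (SE 0.31, adjusted p = 0.0363), a call lost without the 24-month replicates 1, 2, 3, 5 or 8 or the 27-month replicates 0, 3 or 7 (adjusted p up to 0.139). Pck1 also stood in the adipocyte list, in which all 8 genes tested had a positive change and 1 was called, with a median of 0.52 on the log2 scale against 0.01 over all genes tested. The summed level of the list ran from 52.7 to 83.2 CPM at 24 months (median 61.3) and from 64.6 to 125 at 27 months (median 84.9). The other 7 markers, among them adiponectin (Adipoq, 0.55, SE 0.22, adjusted p = 0.133) and perilipin 1 (Plin1, 0.66, SE 0.25, adjusted p = 0.106), did not pass. Angptl4 stood in another list, that of fatty acid uptake and oxidation, and was the 1 gene called there. Of the 27 genes tested in that list 9 had a positive change, and the median was -0.04. The part of fat cells in the change of Angptl4 and Pck1 was not tested.

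Nefm, the medium neurofilament chain of axons, ran from -0.70 through 0.62 to 1.14 log2 CPM at 24 months and from 0.80 through 1.39 to 2.49 at 27 months. All 11 libraries of 27 months were above the 24-month median and 7 above the highest. The rise of 1.16 (SE 0.23, adjusted p = 0.00253) was 2.23-fold and held in all 20 fits without a library, but not with only the 20 libraries in the fit (1.15, adjusted p = 0.0622). The Schwann cell markers had a median change of 0.13 over 13 genes, 0 of them called by limma, edgeR or DESeq2 and 3 at an unadjusted p under 0.05, which 2589 of all 11865 genes tested (21.8%) passed, 1408 of them higher (11.9%) and 1181 lower (9.95%). Their sum ran from 86.9 to 156 CPM at 24 months and from 94.1 to 178 at 27 months.

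Myh3, the embryonic myosin heavy chain of new or regenerating fibres, varied widely at both ages. It ran from 6.51 through 8.13 to 11.03 log2 CPM at 24 months and from 7.92 through 9.81 to 10.76 at 27 months. No 27-month library was above the highest of 24 months, and 10 of 11 lay above its median. The rise was 1.09 (SE 0.31, adjusted p = 0.0323), which was lost without the 24-month replicates 0, 1, 2, 3, 5 or 8 or the 27-month replicates 0, 3, 8 or 9 (adjusted p up to 0.104). In the list of developmental sarcomere genes all 11 had a positive change and only Myh3 was called, with a median of 0.35. Others in that list were Tnnt2, the cardiac and embryonic troponin T (0.77, SE 0.25, adjusted p = 0.0589), Myl4, the embryonic light chain (0.62, SE 0.28, adjusted p = 0.176), and Myh8, the perinatal myosin (0.23, SE 0.12, adjusted p = 0.234). The satellite cell and myogenic list, which marks muscle stem cells, had 16 of 17 genes positive and a median of 0.09, with 0 called by limma, edgeR or DESeq2 and 5 at an unadjusted p under 0.05. Of all genes tested 21.8% passed that p.

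Other large rises were in Tp73, a p53 family factor (1.17, SE 0.34, adjusted p = 0.0363), Anxa8, a membrane-binding annexin (1.08, SE 0.33, adjusted p = 0.0456), and Calml3, a calmodulin-like protein (0.88, SE 0.26, adjusted p = 0.0398). Tp73 spanned -0.77 to 2.56 log2 CPM at 24 months and -0.20 to 3.05 at 27 months. These ranges overlapped widely, while 10 of its 11 libraries of 27 months lay above the 24-month median. The ranges of Anxa8 and Calml3 did likewise, with 0 and 1 libraries of 27 months above the highest of 24 months and 10 and 9 above the 24-month median. These 3 calls were lost in 7, 12 and 11 of the 20 fits without a library, with the adjusted p up to 0.116, 0.144 and 0.122. All 3 were lost without the 24-month replicates 0, 1, 2, 3 or 8 or the 27-month replicates 0 or 9. Anxa8 was also lost without the 24-month replicate 5 or the 27-month replicates 3, 5, 7 or 8, and Calml3 without the 24-month replicate 5 or the 27-month replicates 3, 4 or 10. The 24-month replicate 7 was the highest of its age for these 3 genes and for Nefm, Myh3, Pck1, Lrrn1, Postn and Cd163. It was the lowest for Slc41a3, Cd24 and Tuba8, but at neither end for Angptl4, Mt2A or Rrm2. Overlaps that rest on this library are not independent between genes, and all 74 calls stayed without it.

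**Figure D2:**
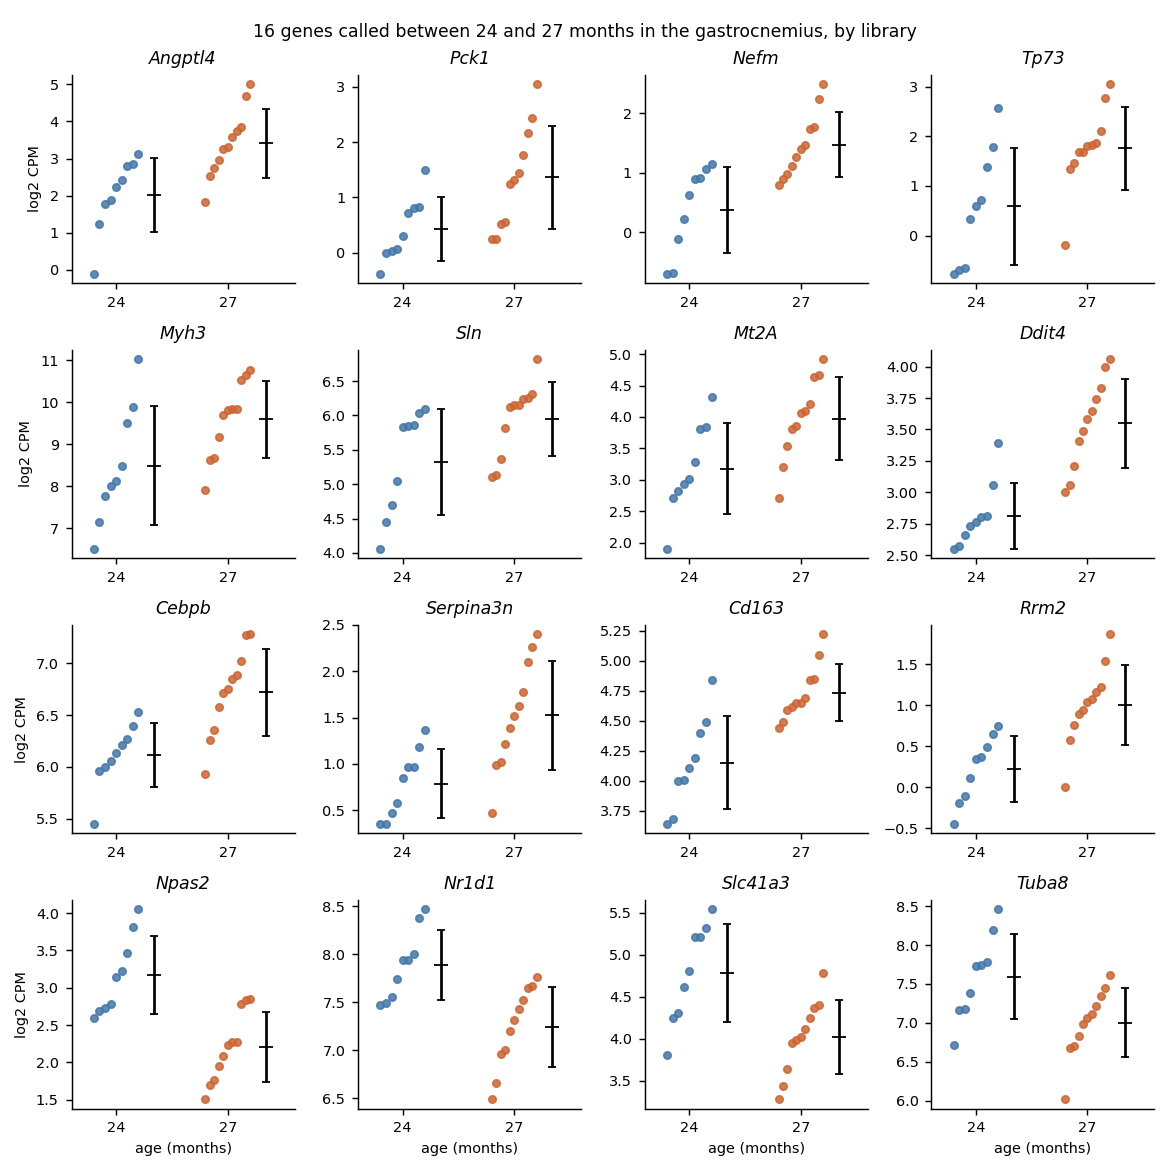
Level in log2 CPM (y axis, its own range in each panel) of 16 called genes in the 9 libraries of 24 months (blue) and the 11 of 27 months (orange), with the mean and SD in black. Points are placed in order of value, which has no other meaning. The ages overlap in every panel, and in the bottom row all 11 libraries of 27 months lie under the 24-month median.

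Lrrn1, a neuronal leucine-rich repeat protein, rose by 0.82 (SE 0.22, adjusted p = 0.0262), and Ntsr1, a neurotensin receptor, by 0.78 (SE 0.19, adjusted p = 0.0161). The call of Lrrn1 was lost without the 24-month replicates 0, 2 or 3 or the 27-month replicates 0 or 9 (adjusted p up to 0.103), and that of Ntsr1 without the 24-month replicate 8 or the 27-month replicate 0 (up to 0.0556).

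Genes that respond to glucocorticoids gave 2 calls and 3 smaller changes that passed the test. Of the 16 tested in that list 2 were called, Ddit4 and Mt2A, 15 had a positive change and the median was 0.37. In the step from 21 to 24 months the median of the same list was -0.11, and the steps share the 24-month libraries. Against 6 months the list median was -0.16 at 21, -0.15 at 24 and -0.02 at 27 months, so that it ended near the level of 6 months. Ddit4, a stress-induced inhibitor of mTORC1, ran from 2.55 through 2.76 to 3.39 log2 CPM at 24 months and from 3.00 through 3.58 to 4.06 at 27 months, with 8 of 11 libraries above the highest of 24 months. It rose by 0.75 (SE 0.20, adjusted p = 0.0217), a call lost without the 24-month replicate 8 or the 27-month replicate 0 (adjusted p up to 0.0569). The mean of Ddit4 was 3.58 at 6 months and 3.55 at 27 months, a change of -0.03 (SE 0.18, adjusted p = 0.890). Tsc22d3, the glucocorticoid-induced leucine zipper, passed the test at a smaller size (0.43, SE 0.08, adjusted p = 0.00253), as did Pik3r1 and Zbtb16 (0.40 and 0.44, adjusted p = 0.0336 and 0.0494). Fkbp5, a chaperone of the receptor, had 0.33 (SE 0.18, adjusted p = 0.271), and the receptor Nr3c1 itself had -0.08 (SE 0.11, adjusted p = 0.694).

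Metallothionein 2 (Mt2A), a small protein that binds zinc and copper, ran from 1.90 through 3.01 to 4.31 log2 CPM at 24 months and from 2.71 through 4.07 to 4.92 at 27 months. The groups overlapped, with 3 libraries of 27 months above the highest of 24 months. Its rise was 0.85 (SE 0.25, adjusted p = 0.0347), lost without the 24-month replicates 0, 1, 2, 4 or 8 or the 27-month replicates 0, 3 or 4 (adjusted p up to 0.105). Metallothionein 1, listed as Mt1a, had a mean of 5.32 ± 0.94 (SD, n = 9) at 24 months and 5.68 ± 0.81 (SD, n = 11) at 27 months, and its change of 0.36 (SE 0.28, adjusted p = 0.484) did not pass. In the step before, from 21 to 24 months, both had risen, Mt1a by 1.95 (SE 0.33, adjusted p = 1.02e-05) and Mt2A by 1.04 (SE 0.30, adjusted p = 0.00602). Of the 9 genes of the metallothionein and zinc list 1 was called in the last step and 4 in the step before. Over all genes tested the shares called were 0.624 and 6.72%. The call in the last step was Mt2A, which is also counted in the glucocorticoid list.

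To show what the start regions of both metallothionein genes hold in common, the 250 bases before each start are printed 5′ to 3′ on the gene's strand, from RefSeq on GRCr8, a later build than the one behind the counts (Mt1 is the current symbol for Mt1a). Capitals mark the core of the metal response element, searched as TGCACNC and TGCGCNC on both strands. Mt2A (chr19:10838709-10838958, minus strand) holds 4 matches and Mt1 (chr19:10832976-10833225, minus strand) 6.
Mt2A: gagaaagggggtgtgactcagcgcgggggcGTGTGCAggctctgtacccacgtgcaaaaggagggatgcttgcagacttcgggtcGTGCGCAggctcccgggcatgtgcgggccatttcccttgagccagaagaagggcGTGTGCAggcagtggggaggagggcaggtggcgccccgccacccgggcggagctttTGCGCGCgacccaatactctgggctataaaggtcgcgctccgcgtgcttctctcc
Mt1: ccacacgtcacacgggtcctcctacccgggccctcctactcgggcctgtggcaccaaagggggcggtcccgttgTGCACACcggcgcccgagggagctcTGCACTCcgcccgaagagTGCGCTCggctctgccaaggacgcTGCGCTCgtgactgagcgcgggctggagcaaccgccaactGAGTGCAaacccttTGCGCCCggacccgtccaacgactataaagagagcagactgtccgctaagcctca
At least 1 such match lies in 6883 of 33469 start regions of this length in the table (20.6%). A match describes letters and not a site in use.

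The integrated stress response and acute phase lists gave 2 calls each, with Cebpb counted in both. In the list of the integrated stress response 2 of 24 genes were called, Mthfd1l and Cebpb, 18 were positive and the median was 0.27. Mthfd1l, a mitochondrial enzyme of folate metabolism, ran from 1.09 through 1.74 to 2.62 log2 CPM at 24 months and from 1.91 through 2.48 to 3.22 at 27 months, and rose by 0.75 (SE 0.15, adjusted p = 0.00254). All of its 27-month libraries were above the 24-month median. Atf4, the transcription factor at the head of that response, had -0.20 (SE 0.10, adjusted p = 0.197). Cebpb, a factor of inflammation and fat cell formation, ran from 5.45 through 6.13 to 6.53 log2 CPM at 24 months and from 5.93 through 6.75 to 7.28 at 27 months. It rose by 0.60 (SE 0.17, adjusted p = 0.0346), with 8 of 11 libraries above the highest of 24 months. From 6 to 27 months Cebpb changed by 0.15 (SE 0.17, adjusted p = 0.436).

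Serpina3n, an acute phase inhibitor of proteases, rose by 0.76 (SE 0.23, adjusted p = 0.0466) and lost its call in 14 of the 20 fits without a library (adjusted p up to 0.140), all but those without the 24-month replicate 7 and the 27-month replicates 1, 2, 7, 8 and 10. The call of Cebpb was lost without the 24-month replicates 1, 2, 4 or 8 or the 27-month replicates 0, 3, 4, 7 or 8 (up to 0.103). Of the 16 genes tested in the interleukin-6 and acute phase list 2 were called, Cebpb and Serpina3n, with a median of 0.33. Il6r, the receptor chain, was below the fold threshold (0.43, SE 0.11, adjusted p = 0.0207), and Socs3, the feedback inhibitor, did not pass (0.35, SE 0.36, adjusted p = 0.600).

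Cell cycle genes were at low levels. Rrm2, the S-phase subunit of ribonucleotide reductase, ran from -0.45 through 0.34 to 0.75 log2 CPM at 24 months and from -0.00 through 1.04 to 1.87 at 27 months, with 9 of 11 libraries above the highest of 24 months. It rose by 0.84 (SE 0.19, adjusted p = 0.00969). Ccnb1, the mitotic cyclin B1, rose by 0.69 (SE 0.16, adjusted p = 0.00983) around a mean of -0.72 ± 0.48 (SD, n = 9) at 24 months and -0.08 ± 0.31 (SD, n = 11) at 27 months. Of the 19 genes tested in the list 2 were called, 18 were positive and the median was 0.37. Mki67, the proliferation marker, had 0.20 (SE 0.20, adjusted p = 0.600).

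The macrophage, T cell and red cell lists gave 1 call each. Cd163, the haemoglobin scavenger receptor of resident macrophages, ran from 3.64 through 4.11 to 4.84 log2 CPM at 24 months and from 4.44 through 4.65 to 5.22 at 27 months and rose by 0.60 (SE 0.14, adjusted p = 0.0113). All 11 libraries of 27 months were above the 24-month median, and the call was lost without the 24-month replicates 0 or 8 or the 27-month replicates 0 or 3. There the change fell under the 1.5-fold limit, with the adjusted p at 0.0384 or less. The macrophage list had 11 of 13 genes positive, a median of 0.25 and a sum of 249 to 417 CPM at 24 months against 287 to 500 at 27 months. Lck, a T cell kinase, rose by 1.12 (SE 0.31, adjusted p = 0.0287) at a mean below 0 log2 CPM, with its call lost without the 24-month replicates 0 or 2 or the 27-month replicates 0 or 1. The T cell sum stayed between 2.05 and 5.30 CPM in all 20 libraries. None of the 46 interferon response genes, the 18 chemokines or the 10 MHC class II genes was called, with medians of 0.06, 0.04 and 0.08. By edgeR and DESeq2 0 were called as well, and at an unadjusted p under 0.05 there were 3, 1 and 0, against 21.8% of all genes tested.

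Hbb, the haemoglobin beta chain of red cells, was at 5.26, 5.83 and 6.09 log2 CPM (lowest, median and highest) at 24 months and at 6.00, 6.30 and 6.73 at 27 months. Of the 27-month libraries 10 lay above the highest of 24 months, and the rise was 0.60 (SE 0.15, adjusted p = 0.0155). Its call was lost without the 24-month replicates 2, 3, 4 or 6 or the 27-month replicates 1, 2 or 7. There the change fell under the 1.5-fold limit, with the adjusted p at 0.0445 or less. The 24-month group was the low one, as the mean was 6.15 at 6, 6.07 at 21, 5.73 at 24 and 6.32 at 27 months. From 6 to 27 months Hbb changed by 0.18 (SE 0.14, adjusted p = 0.280). The difference between the last step and the step before it was 0.94 (SE 0.27, adjusted p = 0.0326). All 7 red cell genes tested were positive, with a median of 0.36 and a sum of 125 to 277 CPM at 24 months and 223 to 327 at 27 months. Against 6 months the median of this list was -0.15 at 21, -0.42 at 24 and 0.04 at 27 months. The share of this change that comes from blood left in the tissue was not tested. Periostin (Postn), a matrix protein of fibroblasts, rose by 0.70 (SE 0.21, adjusted p = 0.0380) and was the 1 gene of 38 called in the collagen and matrix list, in which 34 were positive with a median of 0.19. Its call was lost without the 24-month replicates 0, 1, 2, 3, 5 or 8 or the 27-month replicates 0, 3, 8 or 9. Azin2, an activator of polyamine synthesis, rose by 0.59 (SE 0.16, adjusted p = 0.0282), lost without the 24-month replicates 1, 2, 4 or 5 or the 27-month replicates 0, 1, 7 or 10. From 6 to 27 months Azin2 changed by 0.10 (SE 0.14, adjusted p = 0.560).

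**Figure D3:**
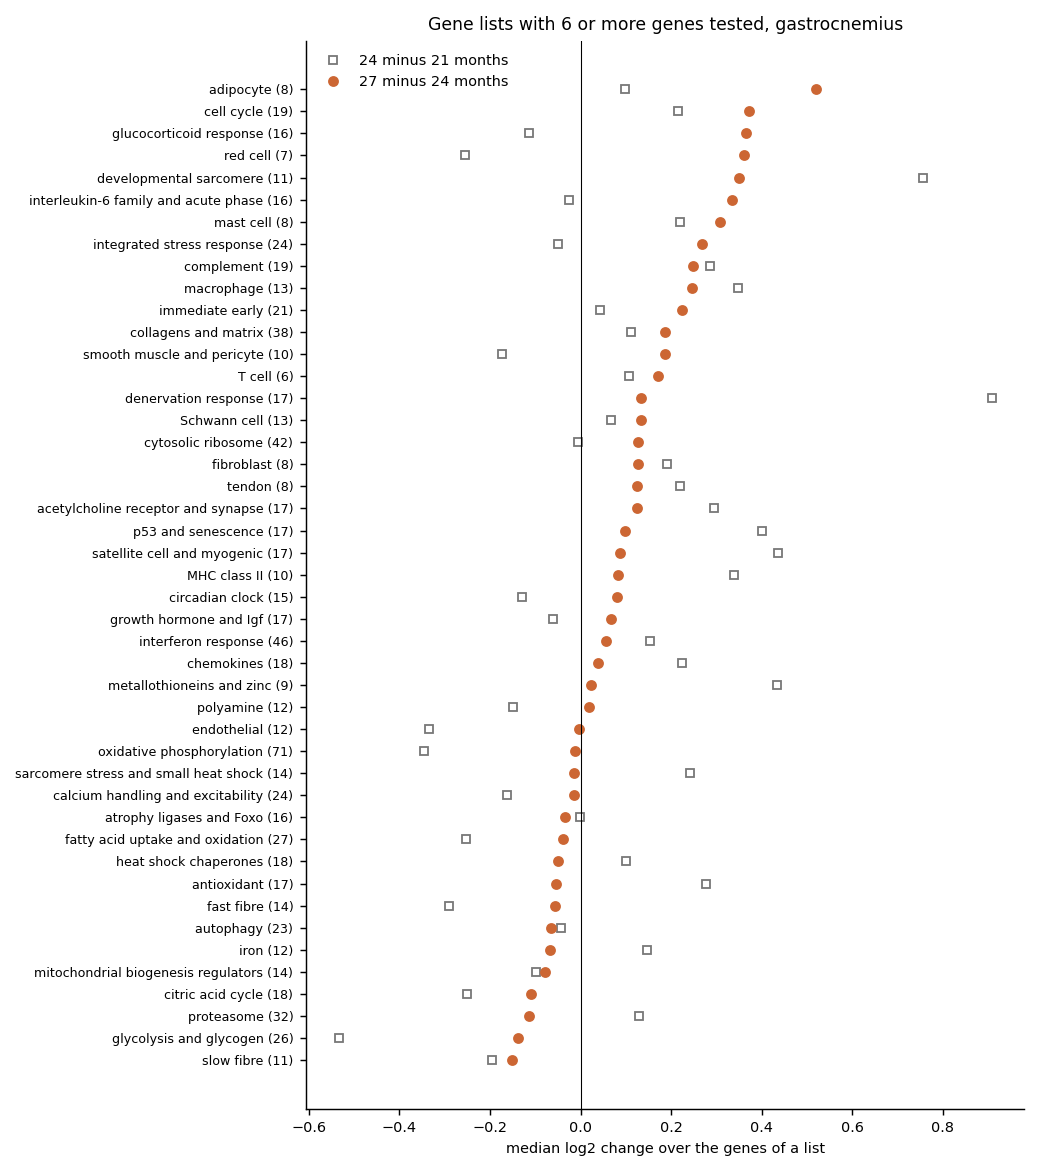
Median log2 change (x axis) over the tested genes of each list with 6 or more genes tested (number in brackets) in the gastrocnemius, from 24 to 27 months (filled orange) and from 21 to 24 months (open grey squares), which share the 24-month libraries. Of the lists drawn, the largest medians of the last step are those of the adipocyte, cell cycle and glucocorticoid lists (0.52, 0.37 and 0.37), while the denervation list is at 0.13 after 0.91.

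Of 15 clock genes tested Npas2 and Nr1d1 fell and 0 were called higher, with a median of 0.08. At an unadjusted p under 0.05 there were 5 higher and 5 lower, against 11.9 and 9.95% of all genes tested, and edgeR and DESeq2 each called 3 of the list. Npas2, a partner of Bmal1 in the activating arm, ran from 2.60 through 3.15 to 4.05 log2 CPM at 24 months and from 1.51 through 2.23 to 2.85 at 27 months. Of the 11 libraries of 27 months 8 lay below the lowest of 24 months, and the fall was -0.96 (SE 0.23, adjusted p = 0.0124), or to 0.515 of the 24-month level. Nr1d1, the repressor Rev-erb alpha, ran from 7.47 through 7.94 to 8.47 log2 CPM and then from 6.49 through 7.32 to 7.76, with 7 libraries below the lowest of 24 months. It changed by -0.64 (SE 0.13, adjusted p = 0.00268), and its call was lost without the 24-month replicate 3 or the 27-month replicates 3 or 6, where the change fell under the 1.5-fold limit. Arntl, which encodes Bmal1 (-0.72, SE 0.24, adjusted p = 0.0688), and Clock (-0.37, SE 0.11, adjusted p = 0.0502) did not pass. On the other arm, Per1 (0.61, SE 0.23, adjusted p = 0.110) and Per2 (0.59, SE 0.21, adjusted p = 0.0831) did not pass, and Cry2 was below the fold threshold (0.21, SE 0.06, adjusted p = 0.0370). Each age was collected on its own day, and the study's methods give all ages the same window from morning to early afternoon. Within that window the hour of sampling cannot be told apart from age for these genes.

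The start regions of both called clock genes are shown because they fell together. They are 250 bases before each start on GRCr8 (RefSeq), 5′ to 3′ on the gene's strand, with capitals for the E-box CACGTG, the element that Bmal1 and its partners bind. The element AGGTCA of Rev-erb and Ror receptors was searched as well, both on each strand. Nr1d1 has 2 start entries in the table, the first at chr10:84231813-84232062 and the second at chr10:84229455-84229704, both on the minus strand, and Npas2 is at chr9:48959315-48959564 on the plus strand.
Nr1d1, first start: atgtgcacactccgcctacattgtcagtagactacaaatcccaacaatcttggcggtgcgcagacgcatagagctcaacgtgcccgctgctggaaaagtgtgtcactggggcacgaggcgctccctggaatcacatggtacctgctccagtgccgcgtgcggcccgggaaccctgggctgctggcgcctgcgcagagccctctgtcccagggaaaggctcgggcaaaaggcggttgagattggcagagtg
Nr1d1, second start: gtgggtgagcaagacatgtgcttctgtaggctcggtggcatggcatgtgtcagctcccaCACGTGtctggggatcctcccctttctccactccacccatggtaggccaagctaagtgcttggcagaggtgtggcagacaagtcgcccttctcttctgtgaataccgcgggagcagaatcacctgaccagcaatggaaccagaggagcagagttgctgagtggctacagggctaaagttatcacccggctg
Npas2: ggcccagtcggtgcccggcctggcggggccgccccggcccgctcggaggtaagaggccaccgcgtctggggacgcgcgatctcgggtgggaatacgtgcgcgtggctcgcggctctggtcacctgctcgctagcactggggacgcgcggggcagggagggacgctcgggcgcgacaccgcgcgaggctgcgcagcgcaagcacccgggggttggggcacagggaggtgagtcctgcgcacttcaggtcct
The E-box stands once, before the second Nr1d1 start, from -191 to -186 counted back from the start, and AGGTCA in none of the 3. Of 33469 start regions of this length 1872 (5.59%) hold the E-box and 4707 (14.1%) AGGTCA.

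Besides both clock genes 7 genes fell. Slc41a3, a magnesium transporter, ran from 3.80 through 4.80 to 5.54 log2 CPM at 24 months and from 3.28 through 4.02 to 4.78 at 27 months, and its log2 change was -0.77 (SE 0.15, adjusted p = 0.00253), to 0.586 of the 24-month level. All 11 of its libraries at 27 months were under the 24-month median and 3 under the lowest. Tuba8, a tubulin chain found in muscle, changed by -0.59 (SE 0.12, adjusted p = 0.00429), Rasd2, a small GTPase, by -0.65 (SE 0.18, adjusted p = 0.0277), and Cd24, a surface glycoprotein, by -0.63 (SE 0.18, adjusted p = 0.0305). For each of these 3, too, all libraries of 27 months lay under the 24-month median. Their calls were lost in 9, 7 and 6 of the 20 fits without a library, the adjusted p of Rasd2 and Cd24 reaching 0.0709 and 0.103. Tuba8 lost its call only by falling under the 1.5-fold limit, with the adjusted p at 0.0171 or less. Among the libraries that ended a call were the 24-month replicates 0, 1, 2, 3, 4 and 8 and the 27-month replicates 0, 3, 9 and 10.

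Cst7, cystatin F of immune cells and a gene that had climbed before, went the other way from its earlier course. It rose from a mean of 1.35 log2 CPM at 6 months to 4.16 ± 0.36 (SD, n = 9) at 24 months and was at 3.51 ± 0.64 (SD, n = 11) at 27 months. The fall was -0.70 (SE 0.21, adjusted p = 0.0407), after a rise of 1.05 (SE 0.23, adjusted p = 0.000281) in the step before, and the difference of both steps was -1.75 (SE 0.37, adjusted p = 0.00772). The call of the fall was lost in 11 of the 20 fits without a library (adjusted p up to 0.131), those without the 24-month replicates 1, 2, 3, 6 and 8 and the 27-month replicates 0, 1, 4, 5, 8 and 9. Also lower were Cxcr6, a chemokine receptor (-1.08, SE 0.31, adjusted p = 0.0324), and Lyc2, a lysozyme gene (-3.54, SE 1.06, adjusted p = 0.0418), both at means under 0 log2 CPM over the 20 libraries and named after their values were seen. Lyc2 varied widely between libraries at 6 months too, with an SD of 3.36 there, 2.15 at 24 and 2.41 at 27 months. RT1-N1, among the higher genes, had 2.97 (SE 0.83, adjusted p = 0.0287) at a mean of -3.46 log2 CPM over the 20 libraries. Its median at 24 months, -6.24, was also its lowest value. Both belong to families of similar genes whose reads the authors' counting could split, which was not tested.

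Genes of the synapse and of denervation, many of which had risen up to 24 months, gave 1 call between 24 and 27 months. Chrnd, the delta subunit of the acetylcholine receptor, was at 3.21 log2 CPM at 6 months, 5.56 at 21 months and 6.61 ± 0.55 (SD, n = 9) at 24 months. At 27 months it was at 6.55 ± 0.41 (SD, n = 11), ran from 5.70 to 7.02 against 5.86 to 7.43 at 24 months, and changed by -0.05 (SE 0.17, adjusted p = 0.890). The groups overlapped almost fully. In the step before it had risen by 1.06 (SE 0.17, adjusted p = 6.56e-06), and the change of step, 27 minus 24 against 24 minus 21 months, was -1.11 (SE 0.30, adjusted p = 0.0234). Changes of step share the 24-month libraries with opposite sign, and 268 genes (2.26%) were called for one, 142 of them negative.

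The other genes followed a like course. Ncam1, the neural cell adhesion molecule, had 0.05 (SE 0.16, adjusted p = 0.897) after 1.15, Musk, the kinase that organises the synapse, 0.19 (SE 0.17, adjusted p = 0.544) after 1.21, and Runx1 -0.19 (SE 0.22, adjusted p = 0.669) after 1.32. For all 3 the change of step was called, at -1.10, -1.03 and -1.51 (adjusted p = 0.0201, 0.0422 and 0.0215). Chrng, the fetal gamma subunit, had 0.13 (SE 0.23, adjusted p = 0.793) after 1.35, and Hdac4, a deacetylase that carries the denervation signal, 0.09 (SE 0.15, adjusted p = 0.772) after 0.80, with changes of step that did not pass (adjusted p = 0.0723 and 0.0980). Of the 17 synapse genes 0 were called in the last step and 5 in the step before, all higher, and of the 17 denervation genes 1 and 11. Of all genes tested 0.624% were called in the last step and 6.72% in the step before. With so small a share in the last step, counts of 0 and 1 do not set these lists apart from all genes. At an unadjusted p under 0.05 each list had 3 genes in the last step, all higher, and edgeR and DESeq2 called 0 in either list. Of all genes tested 11.9% were higher at that p. Their medians were 0.12 and 0.13 in the last step and 0.29 and 0.91 in the step before.

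Sln was the called denervation gene. It went from 0.37 log2 CPM at 6 months to 5.32 ± 0.77 (SD, n = 9) at 24 months and 5.95 ± 0.54 (SD, n = 11) at 27 months, a rise of 0.63 (SE 0.19, adjusted p = 0.0457), and 7 of 11 libraries lay above the highest of 24 months. The call was lost without the 24-month replicates 0, 1, 2 or 3 or the 27-month replicates 0, 3, 4, 7, 8, 9 or 10 (adjusted p up to 0.140). The ubiquitin ligases of muscle wasting did not pass, Trim63 at -0.18 (SE 0.11, adjusted p = 0.305) and Fbxo32 at -0.09 (SE 0.11, adjusted p = 0.676).

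**Figure D4:**
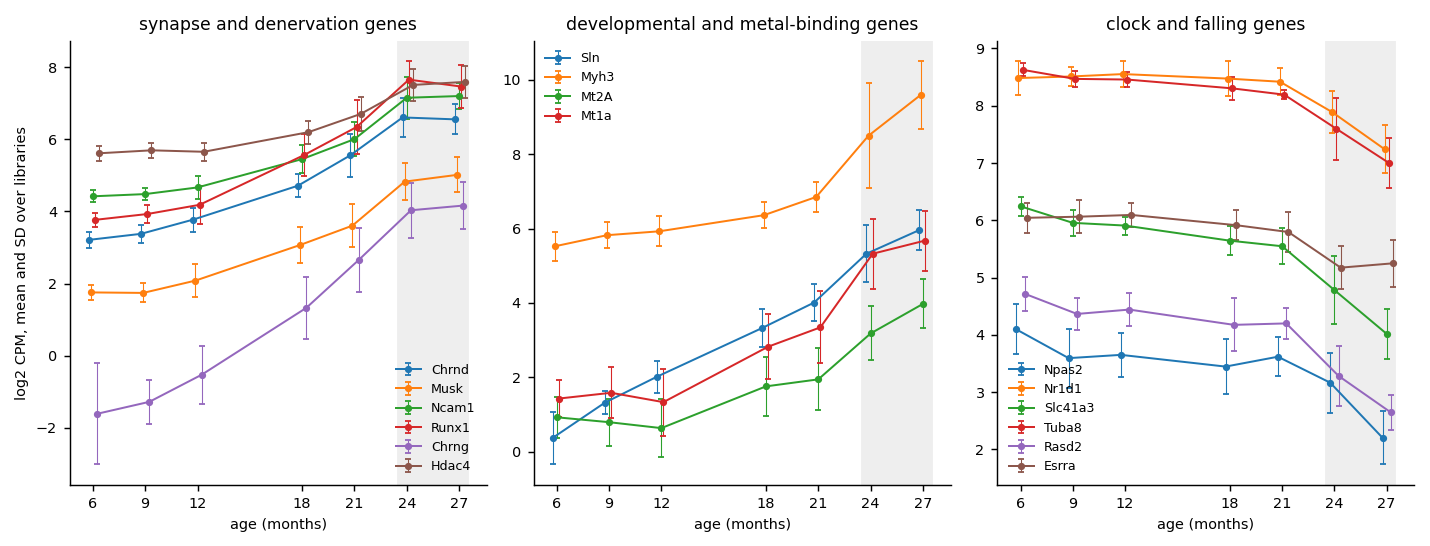
Mean log2 CPM with SD over libraries (y axis) at the 7 ages (x axis, months) for genes of the synapse and denervation (left), Sln with developmental and metal-binding genes (middle), and clock and falling genes with Esrra (right), with 24 to 27 months shaded. Chrnd, Ncam1 and Runx1 level off in the shaded step, Sln, Myh3 and Mt2A are higher at its end, and Npas2, Nr1d1, Slc41a3, Tuba8 and Rasd2 are lower at 27 than at 24 months.

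The lists of oxidative phosphorylation, glycolysis and the citric acid cycle gave 0 calls by limma in the last step. Of 71 oxidative phosphorylation genes 0 were called by limma, edgeR or DESeq2, 35 were positive and the median was -0.01, against -0.34 in the step before. At an unadjusted p under 0.05 there were 6, all lower. Of all genes tested 9.95% were lower and 11.9% higher at that p, the shares to set beside each such count in this paragraph. Esrra, a nuclear receptor that drives mitochondrial genes, had 5.17 ± 0.37 (SD, n = 9) log2 CPM at 24 months and 5.25 ± 0.41 (SD, n = 11) at 27 months, a change of 0.08 (SE 0.14, adjusted p = 0.791) after -0.62 (SE 0.14, adjusted p = 0.000719). Glycolysis and glycogen genes had a median of -0.14 over 26, with 0 called by limma and 1 by edgeR or DESeq2 (6 at an unadjusted p under 0.05, all lower), after -0.53 with 11 called lower. In that earlier step 296 of all 11865 genes tested were called lower. The citric acid cycle list had 1 of 18 genes positive and a median of -0.11, with 0 called by the 3 tools and 4 lower at an unadjusted p under 0.05. The fibre type genes Myh4, the fastest myosin (-0.42, SE 0.18, adjusted p = 0.164), and Myh7, the slow myosin (-0.15, SE 0.18, adjusted p = 0.672), did not pass. The 3 tools called 0 of 14 fast and 0 of 11 slow fibre genes, with 3 and 0 at an unadjusted p under 0.05. Proteasome genes had 2 of 32 positive, a median of -0.11 and 0 calls by any of the 3 tools, with 15 lower at an unadjusted p under 0.05. No list median named here changed sign under another scaling except that of oxidative phosphorylation, which was 0.003 with total-count scaling.

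The direction of the last step was compared with the change from 6 to 21 months, whose libraries are other ones. The low-count filter used all ages, however, so a gene near the floor at 6 months could pass it through the old ages. For such genes a rise by 21 months was favoured, and the comparison is not fully independent. Tp73 and Nefm were of this kind, with means of -2.79 and -2.56 log2 CPM at 6 months. Of the 74 called genes 50 (67.6%) had the same sign from 6 to 21 months, against 55.0% of all genes tested. The share was 44 of 65 among the higher and 6 of 9 among the lower genes. Nefm, Tp73, Sln, Myh3 and Mt2A had risen by 2.28, 2.09, 3.60, 1.33 and 1.15 on the log2 scale by 21 months, whereas Ddit4 and Cebpb had values of -0.77 and -0.30 over that span.

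The same step was fitted in the other muscles, each from its own libraries, of which 24 per muscle were of 24 or 27 months. Per the study's methods the muscles of an age came from 1 group of rats on 1 day, and the labels do not tie libraries to rats. The tests treat libraries as independent, so overlaps between muscles are not independent evidence, and the p-values of differences between muscles take no account of shared animals. The tibialis anterior, the other largely fast hind limb muscle, had 715 of 11754 genes called (6.08%), 490 of them higher (4.17%). In the soleus, the slow hind limb muscle, 550 of 12175 were called (4.52%), 361 higher (2.97%), and in the diaphragm 528 of 12035 (4.39%), 105 higher (0.872%). Of the 74 genes called in the gastrocnemius 50 were also called in the same direction in the tibialis anterior (67.6% of the gastrocnemius genes and 6.99% of those of the tibialis anterior), 38 in the soleus (51.4% and 6.91%) and 14 in the diaphragm (18.9% and 2.65%). Of the genes called higher in the gastrocnemius 63 of 63 tested in the tibialis anterior had a positive change there (50.7% of all genes tested), 60 of 63 in the soleus (53.8%) and 43 of 62 in the diaphragm (48.5%).

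The falls of Npas2 were of like size in all 4 muscles, -0.96, -0.95, -1.08 and -0.88 in the gastrocnemius, tibialis anterior, soleus and diaphragm. Mthfd1l gave 0.75, 0.70, 0.90 and 0.68 in the same order, and Cebpb 0.60, 0.46, 0.62 and 0.59. The step of Npas2 in the gastrocnemius differed from those of the tibialis anterior, soleus and diaphragm by -0.01, 0.11 and -0.13 (SE 0.34, 0.30 and 0.31), and none of these passed (adjusted p = 0.823 to 0.990). Angptl4 differed in the diaphragm by 0.83 (SE 0.58, adjusted p = 0.347), which did not pass.

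Single genes of the synapse and denervation lists differed between the muscles. Chrnd rose by 0.97 (SE 0.23, adjusted p = 0.000321) in the tibialis anterior and 0.97 (SE 0.15, adjusted p = 5.91e-07) in the diaphragm, and by 0.57 (SE 0.11, adjusted p = 1.66e-05) in the soleus, just under the 1.5-fold limit. The step difference, gastrocnemius minus the other muscle, was -1.02 (SE 0.25, adjusted p = 0.00488) against the tibialis anterior, -1.08 (SE 0.25, adjusted p = 0.000488) against the diaphragm and -0.62 (SE 0.24, adjusted p = 0.103) against the soleus. Chrng differed from all 3, by -1.10 (SE 0.33, adjusted p = 0.0276), -1.52 (SE 0.33, adjusted p = 0.000907) and -1.54 (SE 0.46, adjusted p = 0.00894) in the order tibialis anterior, soleus and diaphragm. Musk and Ncam1 differed from the soleus, by -0.93 and -0.83 (adjusted p = 0.0116 and 0.0123). Runx1 and Hdac4 differed from the soleus, by -1.59 and -0.93 (adjusted p = 0.000406 and 0.00356), and from the diaphragm, by -0.96 and -0.72 (adjusted p = 0.0345 and 0.0158). These 4 did not pass against the tibialis anterior (adjusted p = 0.0708 to 0.249).

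Mt1a also differed from all 3 muscles, with a rise of 1.65 in the tibialis anterior, 2.35 in the soleus and 1.68 in the diaphragm and differences of -1.29, -1.97 and -1.37 (adjusted p = 0.0296, 0.000401 and 0.0312). Mt2A, called in all 4 muscles, had differences of -0.35, -0.93 and -0.13 that did not pass (adjusted p = 0.167 to 0.905). By list, the step was called lower in the gastrocnemius for 2, 5 and 3 of 17 synapse genes against the tibialis anterior, soleus and diaphragm, where 0.54, 1.09 and 0.438% of all genes were, and called higher for 0. For the 17 denervation genes 0 differences were called against the tibialis anterior, 7 lower against the soleus, and 3 lower and 1 higher against the diaphragm. Within each muscle 6 of 16, 6 of 17 and 5 of 17 synapse genes and 8 of 16, 10 of 17 and 7 of 17 denervation genes were called higher. Of all genes tested in these muscles 4.17, 2.97 and 0.872% were called higher. The direction of each difference held with size factors and with total-count scaling, while with edgeR the differences of Chrng and Mt1a against the tibialis anterior did not pass (adjusted p = 0.108 and 0.143), nor did that of Chrng against the soleus (0.0657). With total-count scaling those of Hdac4, Mt1a and Runx1 against the diaphragm did not pass (adjusted p = 0.0523, 0.0652 and 0.0739).

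**Figure D5:**
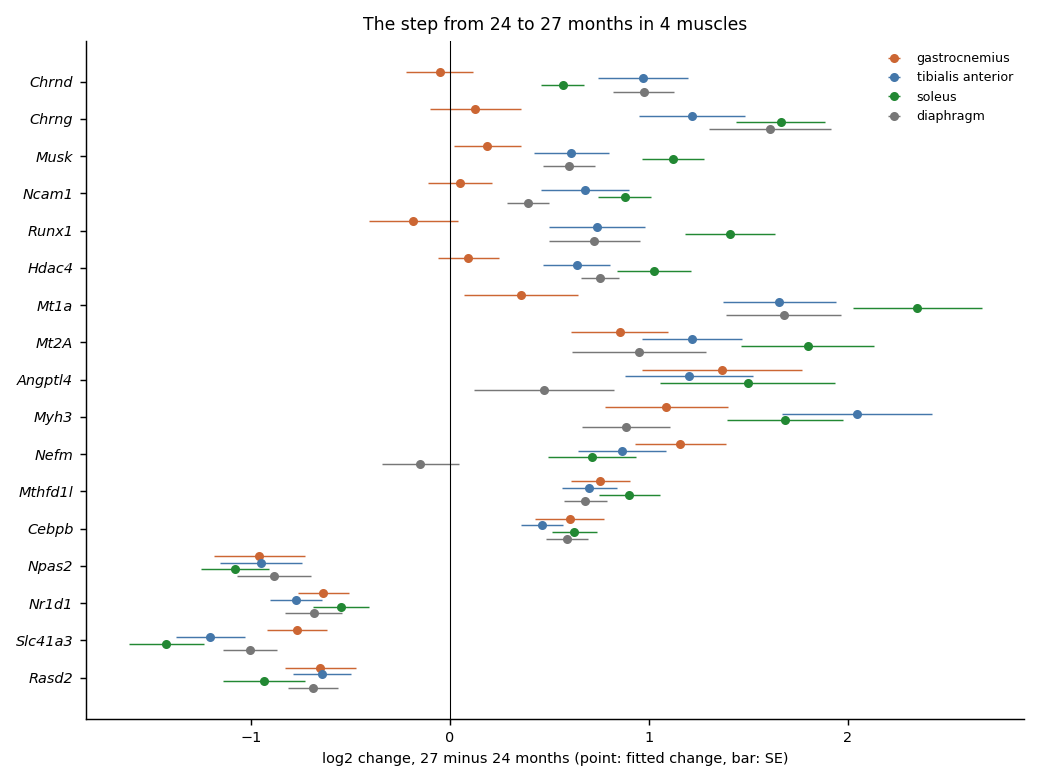
Fitted log2 change from 24 to 27 months (x axis, bars are SE) of 17 named genes in 4 muscles (colours). For Chrnd to Mt1a the gastrocnemius (orange) lies nearest to 0 or below it, while for Npas2, Nr1d1 and Rasd2 the 4 muscles lie together on the negative side.

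Across all genes the step differed from that of the tibialis anterior for 126 of 12784 genes (0.986%), 57 with the larger value in the gastrocnemius. It differed from the soleus for 246 (1.92%), 107 with the larger value in the gastrocnemius, and from the diaphragm for 413 (3.23%), 357 with the larger value in the gastrocnemius. Total-count scaling moved the share with the larger value in the gastrocnemius from 45.2 to 13.0% for the tibialis anterior, with the median of all genes at -0.10 in place of 0.01, and from 43.5 to 25.6% for the soleus. None of the called differences named here changed sign with it.

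Largest among the tibialis anterior differences at a mean level above 0 were those of Nsg2, Sohlh2 and RGD1566226, at -1.92, -1.86 and -1.54 (adjusted p = 0.00303, 0.00418 and 0.0114). Nsg2, a neuronal vesicle protein, rose by 1.31 in the tibialis anterior and had -0.57 (SE 0.37, adjusted p = 0.367) in the gastrocnemius. With edgeR these 3 differences did not pass (adjusted p = 0.124 to 0.271).

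Against the soleus they were Dbndd1, Slc51a and Myh4, at -3.29, -3.15 and -3.11 (adjusted p = 0.000401, 0.0248 and 4.33e-05). Dbndd1 did not pass the low-count filter in the soleus alone, so it has no step there and entered this comparison through other muscles. Myh4 rose by 2.70 (SE 0.42, adjusted p = 4.04e-07) in the soleus, where 10 of 14 fast fibre genes were called higher with a median of 2.09, against -0.42 in the gastrocnemius. Of all genes tested in the soleus 2.97% were called higher. The share of fast muscle in the soleus samples was not tested.

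Against the diaphragm they were Kera, a cornea and tendon proteoglycan, and Cilp2, a cartilage matrix protein, at 1.83 and 1.70 (adjusted p = 0.0105 and 0.0286), with steps in the diaphragm of -2.02 (adjusted p = 0.0209) and -1.49 (adjusted p = 0.114) and no call in the gastrocnemius, followed by Cst7 at -1.57 (SE 0.44, adjusted p = 0.00416). With edgeR those of Kera and Cilp2 did not pass (adjusted p = 0.177 and 0.119). Nefm, Postn and Hbb were also larger in the gastrocnemius, by 1.26, 1.17 and 0.89 (adjusted p = 0.0123, 0.00653 and 0.00149). In the diaphragm Postn had a step of -0.51 (SE 0.18, adjusted p = 0.0188), under the 1.5-fold limit, while Nefm and Hbb had -0.15 and -0.35 and did not pass.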

How the data were processed

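The authors prepared stranded total RNA libraries with ribosomal RNA depletion from tissue kept in RNAlater and quantified genes with the ArrayStudio pipeline (version not given in the sources used here), the B6.0 rat genome reference and an in-house gene model based on RefSeq. The deposited values are raw counts per gene, with 17870 lines for 17315 symbols, and lines of a symbol were summed. Counts of the 73 gastrocnemius libraries were filtered by age group (minimum count 10, minimum total 15), scaled by TMM and fitted with limma-voom (limma 3.58.1, edgeR 4.0.16, R 4.3.3), and 27 was contrasted with 24 months. Step differences between muscles came from the same kind of fit over the libraries of all 4 muscles and ages. P-values were adjusted by Benjamini-Hochberg over all genes tested, and genes called passed an adjusted p of 0.05 at more than 1.5-fold. Levels are log2 CPM with a prior count of 0.5. The alternatives included edgeR's quasi-likelihood test, DESeq2 1.42.0, other scalings, covariates and leaving out each library, and the scripts were tested on simulated data.

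Genes were named by rule: the 12 largest called rises and falls at a mean over 0 log2 CPM, up to 4 called genes per list, 13 genes named in any case, and for each pair of muscles the 3 called genes with the largest step difference. Of these, 1 gene is not reported here. The genes, lists and comparisons were chosen with earlier results of these data known. No 2 of the 20 libraries held identical values.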

Additional observations from a re-analysis of the deposited data

Results flagged for a closer look

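Among the 48 named genes in the 9 libraries of 24 months, 1 had a library whose gap to the next, divided by the range, exceeded Dixon's 95% critical value of 0.493, and chance marks about 1 in 20 such groups. It was Ccnb1 in replicate 2 (0.438 log2 CPM). The 27-month group of 11 was too large for this test.

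For 30 pairs of a named gene and another muscle the step from 24 to 27 months differed by limma's test of the difference itself (gastrocnemius minus the other muscle, log2 scale). Those chosen for having the largest differences had to pass it. Against the tibialis anterior the values were -1.02 for Chrnd, -1.10 for Chrng, -0.836 for Cst7, -1.29 for Mt1a, -1.92 for Nsg2, -1.54 for RGD1566226, -0.792 for Slc51a and -1.86 for Sohlh2. Against the soleus they were -1.52 for Chrng, -3.29 for Dbndd1, -0.931 for Hdac4, -1.97 for Mt1a, -0.926 for Musk, -3.11 for Myh4, -0.826 for Ncam1, -2.92 for RGD1566226, -1.59 for Runx1, -3.15 for Slc51a and -2.73 for Sohlh2, and of these Dbndd1 and Sohlh2 did not pass the low-count filter in the soleus alone. Against the diaphragm they were -1.08 for Chrnd, -1.54 for Chrng, 1.70 for Cilp2, -1.57 for Cst7, 0.89 for Hbb, -0.717 for Hdac4, 1.83 for Kera, -1.37 for Mt1a, 1.26 for Nefm, 1.17 for Postn and -0.964 for Runx1.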

How the results depend on the processing

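The 74 calls became 72 with size factors, 67 with total counts, 61 unfiltered, 77 with edgeR and 83 with DESeq2, of which 45 and 46 were among the 74. The count was 14 with only the 20 libraries, 171 with sample quality weights, 12 after Bonferroni, 469 with no fold threshold (49.7% higher against 87.8%), 15 past 2-fold and 38 with the ribosomal RNA share as a covariate. In alternatives chosen after seeing the data it was 4 with the mean of the glucocorticoid list as a covariate, which holds 2 of the called genes and 15 of 16 members with a positive change in this step, and 45 without the 27-month replicates 0 to 3. Without 1 library it ran from 23 to 162. Replicate numbers did not pair the samples (9 correlations of deviations, -0.356 to 0.0712, no library closest to its own number), and with the number as a replicate block 94 genes were called. With the running number in each sample's description as a covariate 68 genes were called, 48 of them among the 74. That fit lost the calls of Angptl4, Pck1, Mt2A, Cst7, Ddit4, Cebpb, Serpina3n, Azin2 and Hbb. The slow fibre score and the log2 total count as covariates gave 84 and 72 calls. Step differences numbered 10, 41 and 60 after Bonferroni (tibialis anterior, soleus, diaphragm), and 71 with edgeR for the tibialis anterior. The cause of these shifts was not tested. Sign and call by setting were checked for the 48 named genes only, of which 29 were called. None of these 29 changed sign in 1073 checks, and 692 of the checks kept the call. Signs turned only among uncalled genes, named in brackets by setting: RGD1566226 at -0.0109 (size factors), -0.0170 (no filter), -0.0568 (quality weights) and -0.13 (block), Ncam1 at -0.0211 (edgeR) and -0.0280 (DESeq2), Slc51a at -0.0304 (block), Chrnd at 0.0681 (running number), Esrra at -0.0562 (ribosomal RNA share), -0.0146 (glucocorticoid list) and -0.0788 (without replicates 0 to 3), Mt1a at -0.0490, Nsg2 at 0.114 and Kera at 0.0723 (glucocorticoid list), and Dbndd1 at 0.11 and Kera at 0.0071 (without replicates 0 to 3). Without 1 library the changes ran from -0.156 to 0.0501 for Chrnd, -0.0072 to 0.31 for Chrng, -0.0698 to 0.158 for Ncam1, -0.0045 to 0.16 for Hdac4, -0.224 to 0.0550 for Myh7, -0.27 to 0.37 for RGD1566226 and -0.10 to 0.23 for Slc51a.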

Other observations

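Of 42 cytosolic ribosome genes 35 had a positive change and 19 passed an unadjusted p under 0.05, all higher, against 1408 higher of all 11865 genes tested (11.9%), with a median of 0.13 and 0 called by limma, edgeR or DESeq2. Complement genes had 8 higher and 1 lower at an unadjusted p under 0.05 among 19 tested, and 0 were called by the 3 tools.

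In the 27-month library of replicate 1, Alb (6.75 log2 CPM) stood beside Serpina1 at 2.87, Fga at 1.70 and Hpx at 1.41, all made mainly by liver. Of the 5 liver and plasma genes tested 0 were called by limma and 5 by edgeR or DESeq2, with 1 at an unadjusted p under 0.05 in limma.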
